A study of Mus musculus with 16 samples.

Results

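Skin of mice of the group titled day 3 of SDS alone was compared with skin of the day 0 group of the same arm, gene by gene across the whole table. The libraries were chosen by their titles, which name SDS at day 0 or day 3 without Topsym, and they are 4 of the 16 libraries of the series, 2 in each group. Of 32078 genes in the deposited table, 19189 reached a normalised value of 10 in 2 or more libraries and were tested. SDS is sodium dodecyl sulfate, a detergent that draws lipids and proteins out of the horny layer and irritates the skin. By their labels, all libraries hold total RNA of whole skin from animals aged 7 weeks that were treated topically over 4 days, prepared with a strand-specific kit. The other groups used here are SDS alone at days 1 and 5, and SDS with Topsym at days 0 and 3. As background that the labels do not give, Topsym is a brand under which fluocinonide, a potent topical glucocorticoid, is sold. Strain and sex of the animals, and the day on which SDS or Topsym was begun, are not given in the sources used here.

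Irritated skin draws neutrophils, short-lived phagocytes of the blood, through the walls of small vessels by CXC chemokines that keratinocytes, fibroblasts and resident macrophages release. Keratinocytes meanwhile leave their normal programme, in which the keratins of the spinous layer and the proteins of the cornified envelope are laid down in order, and turn on a stress set of keratins, envelope proteins and antimicrobial proteins. Beneath them lie hair follicles with their stem cells, sebaceous glands, a collagen-rich dermis, fat and, in mice, a thin sheet of skeletal muscle, and whole skin carries the RNA of them all.

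Values are normalised reads, written library by library, and changes are differences of log2(normalised reads + 1), day 3 minus day 0, given with the standard error (SE) and, from limma, the adjusted p. A change on that scale understates the fold of genes with low values. The day 0 libraries held 23345010 and 25704707 reads and the day 3 libraries 26102598 and 22220880, within the range of 15199656 to 32066246 for the series. The 10 highest genes took 7.06% and 7.03% of the reads at day 0 and 4.91% and 5.02% at day 3. Markers of epidermis, dermis, fat, vessels and skeletal muscle were present in all 4 libraries, and the liver gene Alb was at 55.5 or less in each. Whether both libraries of a group stem from different animals is not stated, and the spread that the p-values are set against may therefore be technical. The titles of all groups include SDS, those of day 0 too, with no group named as untreated, and so its effect and those of time, of the animals and of the piece of skin taken cannot be told apart. Xist, the RNA that coats the inactive X chromosome, stood at 8965 and 8408 at day 0 and 4154 and 4388 at day 3, and its part in the other results was not tested. In bulk tissue, fewer cells of a type and less RNA per cell cannot be told apart.

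At day 3, 4869 genes were higher (25.4% of those tested) and 4649 were lower (24.2%) at an adjusted p under 0.05. Of these, 1880 and 1934 had changed at least 2-fold, and 439 and 238 at least 8-fold. Both libraries of one group lay above both of the other for 9516 of the 9518 genes that passed, and this holds for each gene that is said below to have risen or fallen. The median change of all genes tested was -0.00544, and the median size of a change, up or down, was 0.507. At day 0, 108 of the higher genes had no read, and at day 3, 62 of the lower genes had none. Counts of gene lists below are read against those shares of 25.4% and 24.2%, and list medians against the median of all genes.

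The 12 largest rises among genes whose higher group had a mean of 1000 or more were those of Cxcl3, Ngp, Retnlg, Stfa2l1, Saa3, Mmp8, Cxcl5, Clec4d, Ppbp, Fpr1, Chil3 and Cxcl2, at log2 9.57 to 11.68. They encode chemokines, granule and secreted proteins of neutrophils and macrophages, an acute phase protein and receptors of phagocytes. Retnlg, a small secreted protein of neutrophils (ENSMUSG00000022651, chromosome 16, 48872621 to 48874496), stood at 1.76 and 4.81 at day 0 and 9555 and 9618 at day 3 (log2 11.23, SE 0.52, adjusted p = 2.25e-11). Chil3, a chitinase-like protein of macrophages and neutrophils (chromosome 3, 106147554 to 106167564), stood at 3.52 and 7.21 at day 0 and 5270.2 and 5159 at day 3 (log2 9.74, SE 0.23, adjusted p = 3.7e-15). The 12 largest falls by the same rule were those of Cpz, Serpina3b, Thrsp, Mylk4, Mfap4, Cyp2g1, Paqr7, Igfbp2, Ptn, Ecm2, Alox12e and Col1a1, at log2 -5.67 to -3.42. They come from the dermis, from muscle, from fat and lipid synthesis and from the epidermis and its glands. Mfap4, a protein of elastic microfibrils (ENSMUSG00000042436, chromosome 11, 61485431 to 61488900), stood at 5288 and 5358 at day 0 and 231 and 203 at day 3 (log2 -4.61, SE 0.10, adjusted p = 1.63e-15). Igfbp2, a carrier of insulin-like growth factors (chromosome 1, 72824503 to 72852474), stood at 1745 and 1819 at day 0 and 134 and 131 at day 3 (log2 -3.74, SE 0.08, adjusted p = 1.32e-15). Coordinates are those of mouse genome GRCm38.

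**Figure D1:**
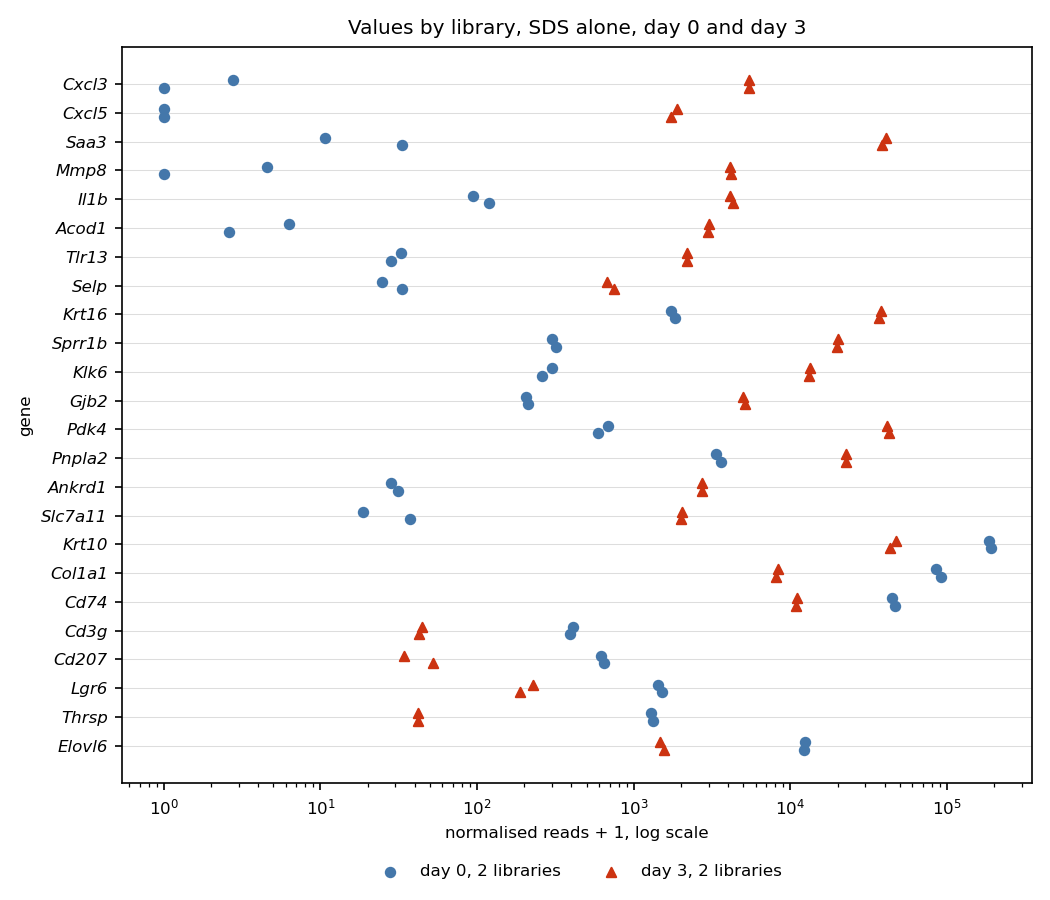
Normalised reads plus 1 of each of the 4 libraries on a log axis, for 24 genes that stand for the groups described here (16 that rose, above, and 8 that fell), with circles for the day 0 and triangles for the day 3 libraries. The libraries of a group lie close together beside the distance between the groups, as for Krt10, at 184379 and 189752 at day 0 against 47142 and 42945 at day 3.

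Genes of mature neutrophils rose, while the genes of the granules that are filled earliest in the bone marrow stayed near 0. Of 8 genes tested for proteins of the specific and later granules, 8 rose (median log2 7.61). Cd177, a surface protein stored with those granules (ENSMUSG00000052212, chromosome 7, 24743983 to 24760311), stood at 1.76 and 8.01 at day 0 and 1042 and 1004 at day 3 (log2 7.68, SE 0.64, adjusted p = 3.35e-08). It was barely detected at day 0 and abundant in both day 3 libraries. Lcn2, which starves bacteria by binding their siderophores, stood at 141 and 155 at day 0 and 26430.3 and 26344 at day 3 (log2 7.47, SE 0.08, adjusted p = 3.57e-19), and Hp, the haemoglobin-binding haptoglobin, at 2161 and 2382 at day 0 and 30270.4 and 28244 at day 3 (log2 3.69, SE 0.10, adjusted p = 1.81e-14). Lcn2 and Hp are also made by keratinocytes and other cells, so they do not mark neutrophils alone. Olfm4, a granule protein of part of the neutrophils, went from no read at day 0 to 412 at day 3, at least 147-fold higher. Ltf, the iron-binding lactoferrin, stood at 1.76 and 0 at day 0 and 49.9 and 74.8 at day 3 (log2 5.23, SE 0.65, adjusted p = 3.82e-06). By contrast, the azurophil granule genes, transcribed in promyelocytes, were not called: 0 of 3 tested rose or fell, and Mpo, the myeloperoxidase gene, was under the filter with 2 reads at day 0 and 4 reads at day 3. Elane, neutrophil elastase, stood at 7.05 and 1.60 at day 0 and 3.33 and 6.80 at day 3. Camp, the cathelicidin, belongs to the specific granules and not to the azurophil ones. Unlike the specific granule genes tested, it stayed low, under the filter with 8 and 23 reads over the groups.

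All 23 surface receptors on the neutrophil list rose (median log2 5.47). Ly6g, the antigen by which mouse neutrophils are sorted, had no read at day 0 and stood at 122 and 151 at day 3, at least 107-fold higher. DESeq2 on recovered reads did not call it (adjusted p = 0.162). Itgb2l, an integrin subunit of neutrophils, and Mrgpra2b, a receptor of neutrophils for bacterial signals, also went from no read to at least 131-fold and 103-fold higher. The receptor for the cytokine that drives their release, Csf3r, stood at 96.0 and 97.8 at day 0 and 3146 and 3102 at day 3. Cxcr2, the receptor for the chemokines described next, stood at 35.2 and 58.5 at day 0 and 2728 and 2922 at day 3 (log2 5.93, SE 0.23, adjusted p = 1.83e-12). Neither receptor was absent at day 0, in contrast to Ly6g. Receptors for bacterial peptides and complement rose too: Fpr2 by log2 7.99, Clec4e by 7.81, Trem1, which amplifies the signals of other receptors, by 8.59 and C5ar1 by 3.75. Each of the 8 genes of the phagocyte oxidase and of chromatin traps rose, at a smaller size (median log2 2.01). Ncf1, a cytosolic subunit of the oxidase, rose by log2 2.13, Cyba, its membrane subunit, which macrophages also express, by 1.27, and Padi4, which citrullinates histones, by 1.99.

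The CXC chemokines that act on neutrophils rose in 6 of 6 genes tested, with a median of log2 9.95, above that of every other list. Cxcl2, a fast-acting member made by macrophages and keratinocytes (ENSMUSG00000058427, chromosome 5, 90903871 to 90905938), stood at 7.05 and 16.8 at day 0 and 9100.4 and 9093 at day 3 (log2 9.57, SE 0.32, adjusted p = 2.99e-13). Cxcl1, which shares its receptor, stood at 72.2 and 66.5 at day 0 and 835 and 943 at day 3 (log2 3.66, SE 0.18, adjusted p = 5.16e-11). Cxcl1 was the higher of the pair at day 0 and the lower at day 3: per kilobase of exon their levels were 37.0 for Cxcl1 and 5.77 for Cxcl2 at day 0, and 474 and 4399 at day 3. Cxcl5, made mostly by epithelial cells, had no read at day 0 and stood at 1895 and 1720.4 at day 3, at least 1442-fold higher. Ppbp and Pf4, which platelets carry in their granules, stood at 0 and 1.60 at day 0 and 2101 and 2046 at day 3 and at 516 and 534 at day 0 and 3955 and 3871 at day 3 (Pf4 log2 2.90, SE 0.12, adjusted p = 3.23e-12). Ppbp started from 2 reads (ratio 2473, 95% counting interval 684 to 20400). These intervals and floors hold for counting error alone, with every read taken as independent.

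**Figure D2:**
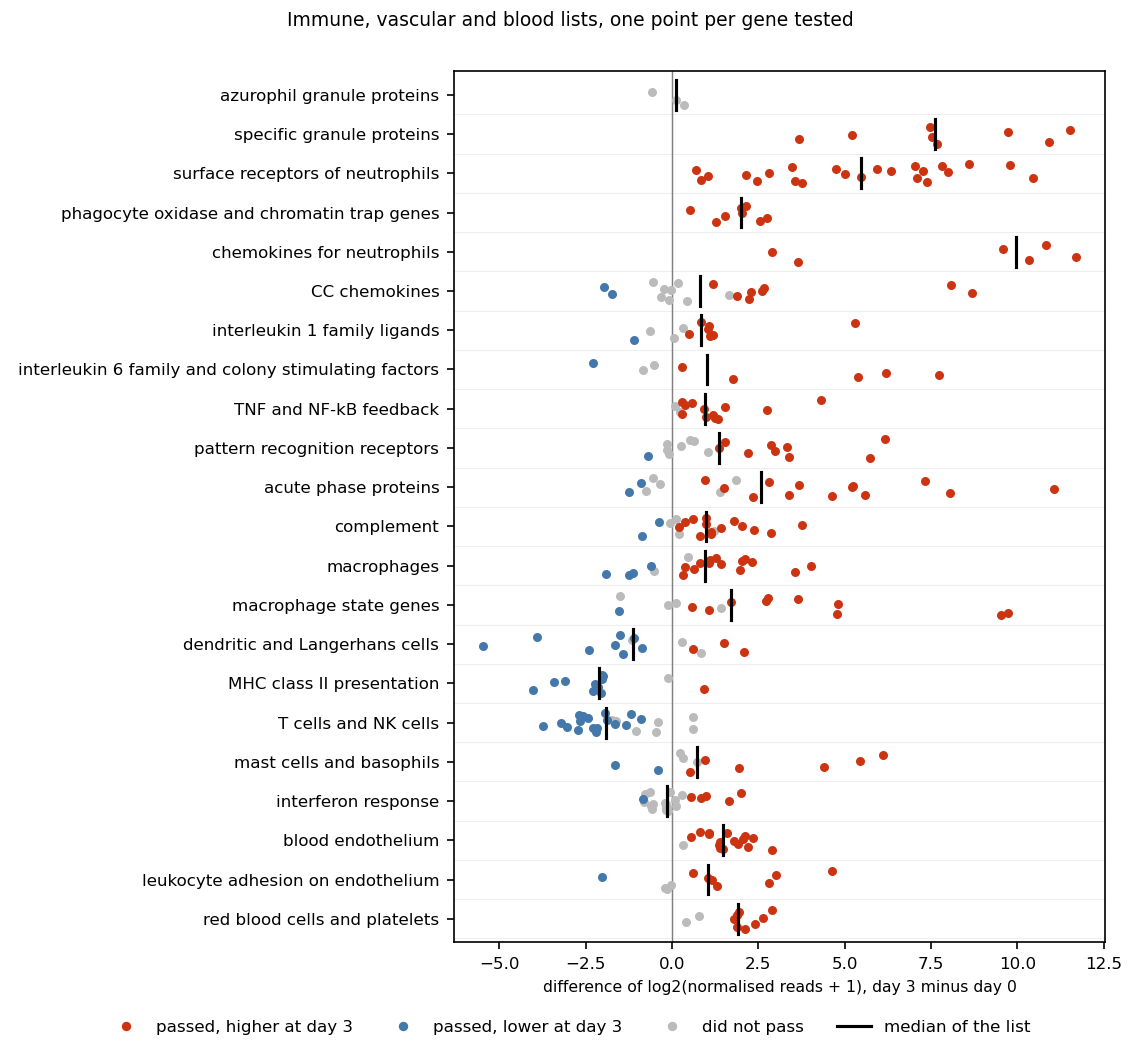
Change from day 0 to day 3 of SDS alone on the log2 scale for each tested gene of the lists of immune, vascular and blood genes, coloured by whether it passed the test, with the median of each list as a bar. The medians of chemokines for neutrophils (9.95) and specific granule proteins (7.61) stand at the right, and those of MHC class II (-2.10) and T and NK cells (-1.91) at the left.

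These chemokine genes lie side by side on chromosome 5, and the proximal promoters of Cxcl1, Cxcl2 and Cxcl3 are shown because the genes rose by very different sizes, 3.66 against 9.57 and 11.68. Each stretch of 60 bases is read 5′ to 3′ on the plus strand of GRCm38.p6 and lies before the start of the gene in RefSeq. They lie at chr5:90891150-90891209 for Cxcl1, chr5:90903796-90903855 for Cxcl2 and chr5:90786026-90786085 for Cxcl3. Capitals mark matches to the NF-kB motif (GGG, any 3 bases, TTCC) on either strand.
Cxcl1: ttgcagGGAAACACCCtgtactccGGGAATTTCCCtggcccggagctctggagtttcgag
Cxcl2: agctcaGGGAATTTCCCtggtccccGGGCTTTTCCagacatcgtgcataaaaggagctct
Cxcl3: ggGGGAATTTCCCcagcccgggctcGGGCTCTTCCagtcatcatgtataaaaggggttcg
The motif can match both strands at overlapping positions, and the longer run of capitals in each line is such a double match. All 3 promoters hold the same overlapping pair and a further match. The 250 bases before the start were searched. Of 12987 tested genes with a promoter in the RefSeq table, 672 held the motif there (5.17%). So did 20 of 289 genes that rose at least 8-fold (6.92%) and 7 of 154 that fell at least 8-fold (4.55%). A match is a description of the letters, not a measured binding site.

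The CC chemokines, which draw monocytes, lymphocytes and eosinophils, went both ways: 8 of 18 were higher and 2 lower (median log2 0.81). Ccl3 and Ccl4, made by activated macrophages and neutrophils, stood at 5.29 and 8.01 at day 0 and 2121 and 1978 at day 3 and at 0 and 4.81 at day 0 and 995 and 973 at day 3, log2 8.09 and 8.67. Ccl6 and Ccl9, which myeloid cells make at a higher resting level, rose by 2.65 and 2.60, and Ccl2, the chief chemokine for monocytes, by 2.30. Ccl22, with which dendritic cells attract T cells, fell from 512 and 475 to 122 and 126. Ccl5, a chemokine for T cells (38.8 and 28.8 at day 0 and 41.6 and 23.3 at day 3), was not called, and neither were Cxcl9 (45.8 and 52.9 at day 0 and 107 and 144 at day 3) and Cxcl10 (67.8 and 41.7 at day 0 and 79.9 and 71.9 at day 3), the chemokines that interferon induces. Cxcl13, a chemokine for B cells that macrophages also make, rose from 724 and 668 to 7969 and 8725.

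Several cytokines of the innate response rose. Il1b (ENSMUSG00000027398, chromosome 2, 129364570 to 129371139), the secreted form of interleukin 1 made by myeloid cells, stood at 92.5 and 119 at day 0 and 4089.8 and 4279 at day 3 (log2 5.31, SE 0.14, adjusted p = 1.7e-14), while Il1a, the form stored in keratinocytes, rose by log2 1.18. Il1rn, the antagonist of their receptor, was higher per kilobase of exon than Il1b at day 0 (379 against 55.3) and at day 3 the levels were 781 and 2194. Csf3, which releases neutrophils from the marrow, stood at 0.881 and 3.21 at day 0 and 568 and 614 at day 3 (log2 7.72, SE 0.61, adjusted p = 1.68e-08). Osm and Il6, ligands of the gp130 receptor, stood at 5.29 and 4.81 at day 0 and 468 and 422 at day 3 and at 3.52 and 0 at day 0 and 91.6 and 84.6 at day 3, log2 6.20 and 5.39. Osmr, the receptor subunit for the product of Osm, rose by 1.31, and Socs3, the inhibitor that STAT3 induces, by 2.65. Tnf stood at 43.2 and 49.7 at day 0 and 942 and 929 at day 3 (log2 4.31, SE 0.24, adjusted p = 1.77e-10), and of its receptors and the feedback genes of NF-kB, 12 of 14 were higher and 0 lower (median log2 0.95) with Tnf included. Il23a, the subunit particular to interleukin 23, rose from 1.76 and 3.21 to 79.1 and 93.3, and Il24, a cytokine of the interleukin 20 family, from no read to 144 reads, at least 51.3-fold higher. Il17a and Il17f, the products of the T cells on which interleukin 23 acts, were under the filter, with 8 and 8 reads over the day 0 group and 2 and 1 over the day 3 group. Il20ra and Il20rb, receptor subunits for the interleukin 20 family, fell, at log2 -1.12 and -1.12. In the whole list of the interleukin 17, 20 and 23 axis, 7 of 15 were higher and 5 lower (median log2 0.54). Of the type 2 genes, Il4ra rose by 1.94, and Il4 was not called, at 32.6 and 24.8 at day 0 and 9.99 and 13.6 at day 3.

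Sensors of microbes and damage rose in 9 of 17 genes and fell in 1 (median log2 1.36). Tlr13, an endosomal sensor of bacterial ribosomal RNA, stood at 31.7 and 27.2 at day 0 and 2186 and 2174 at day 3 (log2 6.17, SE 0.26, adjusted p = 4.8e-12), and Cd14, the co-receptor for lipopolysaccharide, at 222 and 224 at day 0 and 12069 and 11786 at day 3 (log2 5.73, SE 0.09, adjusted p = 5e-17). Tlr2 and Tlr6 rose by 3.34 and 3.40, whereas Tlr3 and Tlr5, which epithelial cells also express, were not called at log2 -0.08, SE 0.24, adjusted p = 0.813 and log2 -0.15, SE 0.18, adjusted p = 0.513. Nlrp3, the sensor of the inflammasome that matures interleukin 1 beta, stood at 36.1 and 36.9 at day 0 and 2482 and 2312 at day 3. Pycard, its adaptor, fell, at log2 -0.85. Nlrp10, an epidermal relative of Nlrp3, fell from 1877 and 1676 to 437 and 438. In the list of inflammasome and pore genes, 6 of 12 were higher and 5 lower (median log2 0.38).

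Acute phase genes, best known from the liver, rose in 13 of 20 and fell in 2 (median log2 2.58). Saa1 stood at 0 and 3.21 at day 0 and 558 and 536 at day 3 (log2 8.06, SE 0.82, adjusted p = 3.75e-07) and Saa2 went from no read to 134 and 189.5, at least 127-fold higher, while Saa3, the form made outside the liver, stood at 9.69 and 32.1 at day 0 and 40902 and 38580 at day 3. Reads of these near copies can be shared. Serpina3m and Serpina3n, serine protease inhibitors, rose by 5.60 and 2.82, whereas their neighbour Serpina3h fell, at log2 -1.24. Ptx3, a long pentraxin of phagocytes and stroma, stood at 29.9 and 40.1 at day 0 and 1400.2 and 1285 at day 3 (log2 5.23, SE 0.75, adjusted p = 2e-05), and Lrg1, a glycoprotein of neutrophils and vessels, rose by 3.38. Orm1, the orosomucoid gene, fell from 3103 and 3045 to 1574 and 1715, and the fibrinogen genes Fga, Fgb and Fgg were under the filter, with 9, 6 and 24 reads over the day 3 group. The liver genes Apoa2 and Ttr were not called, at 1.76 and 2.40 at day 0 and 1.66 and 7.78 at day 3 and at 68.7 and 64.1 at day 0 and 107 and 103 at day 3. In the complement list 14 of 20 were higher and 2 lower (median log2 1.00). C3ar1 and C5ar2, receptors for its fragments, rose by 2.36 and 2.86, C3 itself by 0.38, and the inhibitor gene Cd55 fell, at log2 -0.88.

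The promoters of the 3 Saa genes are shown because their RNAs rose together from near 0. The stretches lie before the gene's start in GRCm38.p6, at chr7:46743128-46743187 on the minus strand for Saa1, chr7:46751625-46751684 on the plus strand for Saa2 and chr7:46715741-46715800 on the minus strand for Saa3, each read 5′ to 3′ along the gene. Capitals mark matches to the C/EBP motif TTGCNNAA on either strand.
Saa1: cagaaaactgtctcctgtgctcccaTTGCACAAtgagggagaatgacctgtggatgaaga
Saa2: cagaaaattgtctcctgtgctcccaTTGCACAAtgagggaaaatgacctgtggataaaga
Saa3: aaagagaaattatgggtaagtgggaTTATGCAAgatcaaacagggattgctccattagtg
Saa1 and Saa2 carry the match on the plus strand of the gene, Saa3 on the other strand and nearer to the start, from 99 to 92 bases before it against 182 to 175 for Saa1 and 183 to 176 for Saa2. The motif was in 1067 of the 12987 promoters (8.22%), in 50 of the 289 of genes that rose at least 8-fold (17.3%) and in 15 of the 154 of genes that fell at least 8-fold (9.74%). The AP-1 motif TGANTCA was in 5.34%, 13.5% and 5.84% of the same sets, and the STAT motif TTCNNNGAA in 6.01%, 9.69% and 5.84%. Among the C/EBP genes themselves, Cebpd and Cebpb rose by log2 1.60 and 0.79, and Cebpa fell from 6794 and 7569 to 4832 and 4546.

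Macrophage genes were mostly higher: 14 of 20 were higher and 4 lower (median log2 0.95), and the count of lower genes was 1 or 2 without any 1 of the 4 libraries. Cd163 and Mrc1, scavenger receptors of dermal macrophages, stood at 2913 and 2812 at day 0 and 12317 and 12412 at day 3 and at 2476 and 2262 at day 0 and 9373 and 9314 at day 3 (Mrc1 log2 1.98, SE 0.06, adjusted p = 6.15e-14). Msr1, another scavenger receptor, rose by log2 4.03, and Ly6c2, a marker of inflammatory monocytes, from 43.2 and 32.1 to 432 and 473. The general macrophage gene Csf1r rose less, by 0.64. Adgre1, which encodes the marker F4/80, stood at 743 and 794 at day 0 and 907 and 1004 at day 3 (log2 0.31, SE 0.12, adjusted p = 0.045), a call that was lost without any 1 of the 4 libraries (log2 0.24 to 0.39). Cd209f, a lectin of resident macrophages, fell from 821 and 928 to 264 and 203. Acod1, which makes the antimicrobial metabolite itaconate, stood at 5.29 and 1.60 at day 0 and 3005 and 2956 at day 3 (log2 9.53, SE 0.48, adjusted p = 6.1e-11), and Nos2, the inducible nitric oxide synthase, at 8.81 and 21.6 at day 0 and 393 and 439 at day 3 (log2 4.80, SE 0.63, adjusted p = 7.39e-06). Both were barely detected at day 0. Arg1, an enzyme that competes with it for arginine, was not called, at 1279 and 1274 at day 0 and 1324 and 1476 at day 3, while Arg2 rose by 3.61. Retnla, a product of alternatively activated macrophages, fell from 6210.0 and 6768 to 2276 and 2251, and Thbs1, thrombospondin of platelets, macrophages and stroma, rose from 1223 and 1192 to 32466 and 33307.

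Genes of antigen presentation and of lymphocytes were lower. Of 12 MHC class II genes, 10 fell and 1 rose (median log2 -2.10). Ciita, the master regulator of the class, stood at 498 and 478 at day 0 and 50.8 and 61.2 at day 3 (log2 -3.11, SE 0.43, adjusted p = 1.47e-05), and Cd74, the invariant chain, at 44533 and 46443 at day 0 and 11063 and 10784 at day 3 (log2 -2.06, SE 0.05, adjusted p = 7e-15). The gene that rose was Ctss, a protease of the class II compartment that macrophages also use. In the dendritic cell list 8 of 14 were lower and 3 higher (median log2 -1.13). Cd207, which marks Langerhans cells, stood at 618 and 643 at day 0 and 33.3 and 51.5 at day 3 (log2 -3.90, SE 0.23, adjusted p = 4.45e-10), and Epcam, which they share with follicle keratinocytes, fell, at log2 -0.87. Xcr1, the receptor of cross-presenting dendritic cells, stood at 71.3 and 114 at day 0 and 3.33 and 0 at day 3 (log2 -5.45, SE 0.76, adjusted p = 1.37e-05). Fscn1, which maturing dendritic cells express, rose by 1.52, and Ccr7, with which they leave for the lymph node, was not called at 59.0 and 63.3 at day 0 and 63.3 and 87.5 at day 3.

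None of 24 T cell and NK cell genes rose and 17 fell (median log2 -1.91). Cd3g, a chain of the receptor complex of T cells, stood at 410.5 and 388 at day 0 and 43.3 and 41.8 at day 3 (log2 -3.20, SE 0.35, adjusted p = 8.87e-07). Trdc, the constant region of the delta chain that the dendritic T cells of mouse epidermis carry, stood at 374 and 365 at day 0 and 79.9 and 114 at day 3 (log2 -1.94, SE 0.29, adjusted p = 2.58e-05). Prf1, the perforin of cytotoxic cells, fell, at log2 -2.69. Gzmb, another cytotoxic product, was not called, at 15.4 ± 8.15 at day 0 and 22.6 ± 3.74 at day 3 (mean ± SD, n = 2), and neither was Foxp3, which defines regulatory T cells, at 56.4 and 70.5 at day 0 and 15.0 and 26.2 at day 3. In the small B and plasma cell list 4 of 7 were lower and 0 higher (median log2 -1.56), among them Ighm, from 2434 and 2542 to 307 and 376.

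Mast cell and basophil genes did not move together: 6 of 11 were higher and 2 lower (median log2 0.73), with 1 lower without SDS_D3 replicate 2. Hdc, which makes histamine and is also induced in neutrophils, stood at 91.6 and 89.0 at day 0 and 6433 and 6114 at day 3 (log2 6.10, SE 0.18, adjusted p = 8.05e-14). The tryptase gene Tpsb2 rose by 1.93, while Mrgprb2, a receptor of connective tissue mast cells for basic peptides, fell, at log2 -1.65. Of 22 interferon response genes, 5 rose and 1 fell (median log2 -0.16), shares under those of all genes. The count of risen genes was 3 without SDS_D0 replicate 1 or SDS_D3 replicate 2 and 2 without SDS_D3 replicate 1, and the count tests edgeR and DESeq2 called 6 lower. Oas3 rose by 2.01, Gbp2, which interferon gamma induces, fell, at log2 -0.85, and Isg15 was not called at 93.4 and 131 at day 0 and 144 and 128 at day 3.

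Vessel genes rose: 16 of 17 genes of blood endothelium were higher and 0 lower (median log2 1.48). Cdh5, the cadherin of endothelial junctions (ENSMUSG00000031871, chromosome 8, 104101625 to 104144511), stood at 538 and 511 at day 0 and 2629 and 2749 at day 3 (log2 2.36, SE 0.10, adjusted p = 5.84e-12), and Pecam1, which platelets and leukocytes also express, at 775 and 797 at day 0 and 3361 and 3222 at day 3 (log2 2.06, SE 0.13, adjusted p = 1.38e-09). Aplnr, the apelin receptor of growing vessels, rose by 2.90, and Plvap, of fenestrated and leaky vessels, by 2.21. Selp and Sele, the selectins on which leukocytes roll, stood at 23.8 and 32.1 at day 0 and 678 and 745 at day 3 and at 26.4 and 24.0 at day 0 and 159 and 211 at day 3, log2 4.64 and 2.81. The integrin ligands Vcam1 and Icam1 rose by 1.29 and 0.61, and Ackr1, a chemokine-binding receptor of venules, was not called at 858 and 886 at day 0 and 776 and 816 at day 3. Among pericyte and smooth muscle genes 8 of 14 were lower and 1 higher (median log2 -0.91), with the smooth muscle myosin Myh11 from 6619 and 6099 to 1809.8 and 1978. Kdr, the main receptor for Vegfa, rose by 0.81 and Vegfa by 1.72.

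Genes of red blood cells and platelets were higher as well, 8 of 10 (median log2 1.91), and the list summed to 3106 and 3838 at day 0 and 13618 and 15121 at day 3. Hba-a1 stood at 918 and 979 at day 0 and 3699 and 3548 at day 3 and Alas2, of maturing red cells, at 77.5 and 55.3 at day 0 and 276 and 295 at day 3. Both are made in the red cell lineage, and the part of blood held in the tissue in the leukocyte and endothelial results was not tested. Clotting and plasminogen genes rose in 11 of 14, with Plaur, the urokinase receptor, from 165 and 154 to 3483 and 3563. F10, a clotting factor that macrophages can make, rose by log2 4.37, and Plau, urokinase itself, was not called at 1050.0 and 1057 at day 0 and 1222 and 1158 at day 3.

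In the epidermis most stress keratins were higher: 6 of 10 were higher and 2 lower (median log2 2.62). The 2 that fell were Krt75, a keratin of the follicle's companion layer, at log2 -1.81, and Krt80, at -0.63. Krt6b (ENSMUSG00000023041, chromosome 15, 101676023 to 101680287) and Krt16, keratins of wounded and hyperproliferative epidermis, stood at 151 and 195 at day 0 and 17098 and 15736 at day 3 and at 1723 and 1844 at day 0 and 38060.5 and 36708 at day 3 (Krt16 log2 4.39, SE 0.07, adjusted p = 6.75e-17). Krt10 and Krt1, the keratin pair of the spinous layer, stood at 184379 and 189752 at day 0 and 47142 and 42945 at day 3 and at 82953 and 80944 at day 0 and 38574 and 38440 at day 3 (Krt10 log2 -2.06, SE 0.05, adjusted p = 7.76e-15). Per kilobase of exon, Krt10 was at 88489 and Krt16 at 1139.6 at day 0, and they stood at 21307 and 23888 at day 3. Krt77, another suprabasal keratin, fell, at log2 -2.02, and Krt17, often grouped with the stress keratins, was not called, at 35188 and 36352 at day 0 and 36517 and 34450.1 at day 3. The simple epithelial keratins Krt8 and Krt18 rose by 3.53 and 4.32, from means under 10. In the basal pair, Krt14 rose by 0.28 and Krt5 fell, at log2 -0.84.

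The late cornified envelope family split. Genes of the Sprr and Lce3 groups, which barrier injury induces, rose in 18 of 20 (median log2 3.69), and genes of the Lce1 group of normal skin fell in 13 of 14 (median log2 -1.16). Lce3d stood at 19.4 and 18.4 at day 0 and 574 and 549 at day 3 (log2 4.82, SE 0.09, adjusted p = 3.04e-16), and Lce1m, the Lce1 gene with the most reads, at 22683 and 24084 at day 0 and 9410.0 and 8822 at day 3 (log2 -1.36, SE 0.09, adjusted p = 1.71e-09). All Lce3 genes tested lay above day 0, in both libraries, and the members of the families are near copies whose reads can be shared. Sprr1b rose by 6.02 and Sprr2d by 5.39. In the spinous and granular list 15 of 25 were lower and 6 higher (median log2 -0.51), with Flg2 and the loricrin gene Lor at -1.60 and -1.19, while Tgm1, which cross-links the envelope, rose by 0.54 and involucrin, Ivl, was not called at 6540.3 and 5884 at day 0 and 6167 and 6338 at day 3.

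Antimicrobial genes of the epidermis rose in 12 of 17 and fell in 2. S100a8 and S100a9, the subunits of calprotectin, which neutrophils and stressed keratinocytes both make, stood at 24.7 and 40.1 at day 0 and 10648 and 10027 at day 3 and at 108 and 106 at day 0 and 30140.5 and 29855 at day 3. Slpi, an inhibitor of neutrophil elastase, stood at 44.9 and 48.1 at day 0 and 3985 and 3463 at day 3 (log2 6.29, SE 0.09, adjusted p = 4.39e-18), and the beta-defensin gene Defb4 rose from 2 reads to 232 reads over the groups (ratio 124, 95% counting interval 33.9 to 1030). Klk6 and Klk13, secreted serine proteases of the kallikrein cluster, stood at 299 and 259.6 at day 0 and 13402 and 13145 at day 3 and at 45.8 and 73.7 at day 0 and 865 and 909.8 at day 3, log2 5.57 and 3.91. Klk5, which starts the shedding of the horny layer, fell, at log2 -0.43. The stefins Stfa1 and Stfa2 rose by 4.83 and 5.35, and Serpinb12 and Serpinb7, protease inhibitors of the upper epidermis, fell, at log2 -2.35 and -1.64.

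Gjb2 and Gjb6, connexins that appear in wounded and hyperproliferative epidermis, stood at 203 and 209 at day 0 and 4982 and 5138 at day 3 and at 31.7 and 41.7 at day 0 and 564 and 438 at day 3 (Gjb2 log2 4.61, SE 0.05, adjusted p = 3.57e-19). Of the junction list, 8 of 19 were lower and 4 higher (median log2 -0.25). For ceramides of the barrier 8 of 22 were higher and 9 lower (median log2 -0.03), with Degs2, which hydroxylates ceramides, at 2.49, Fa2h, which hydroxylates their fatty acids, at -2.81 and the ceramidase Acer1 at -2.02. The growth factors Nrg1, Areg and Hbegf, ligands of the EGF receptor family, stood at 37.9 and 19.2 at day 0 and 419 and 433 at day 3, at 62.5 and 47.3 at day 0 and 359 and 305 at day 3 and at 272 and 231 at day 0 and 1165 and 1216 at day 3, log2 3.93, 2.58 and 2.24. Ereg was not called (803 and 721 at day 0 and 837 and 791 at day 3), and Btc, made by the follicle, fell from 1024 and 1000.1 to 276 and 304. Genes of dividing cells did not follow: for mitosis 8 of 18 were lower and 2 higher (median log2 -0.11), with Mki67 from 2811 and 2565 to 1467 and 1522 and Cdk1 not called at 381 and 361 at day 0 and 367 and 376 at day 3. Without SDS_D3 replicate 1 or 2 a single mitosis gene was higher, and without SDS_D3 replicate 2 the higher junction genes were 2. For DNA replication 4 of 18 were higher and 4 lower (median log2 -0.00), so both its shares were under those of all genes.

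**Figure D3:**
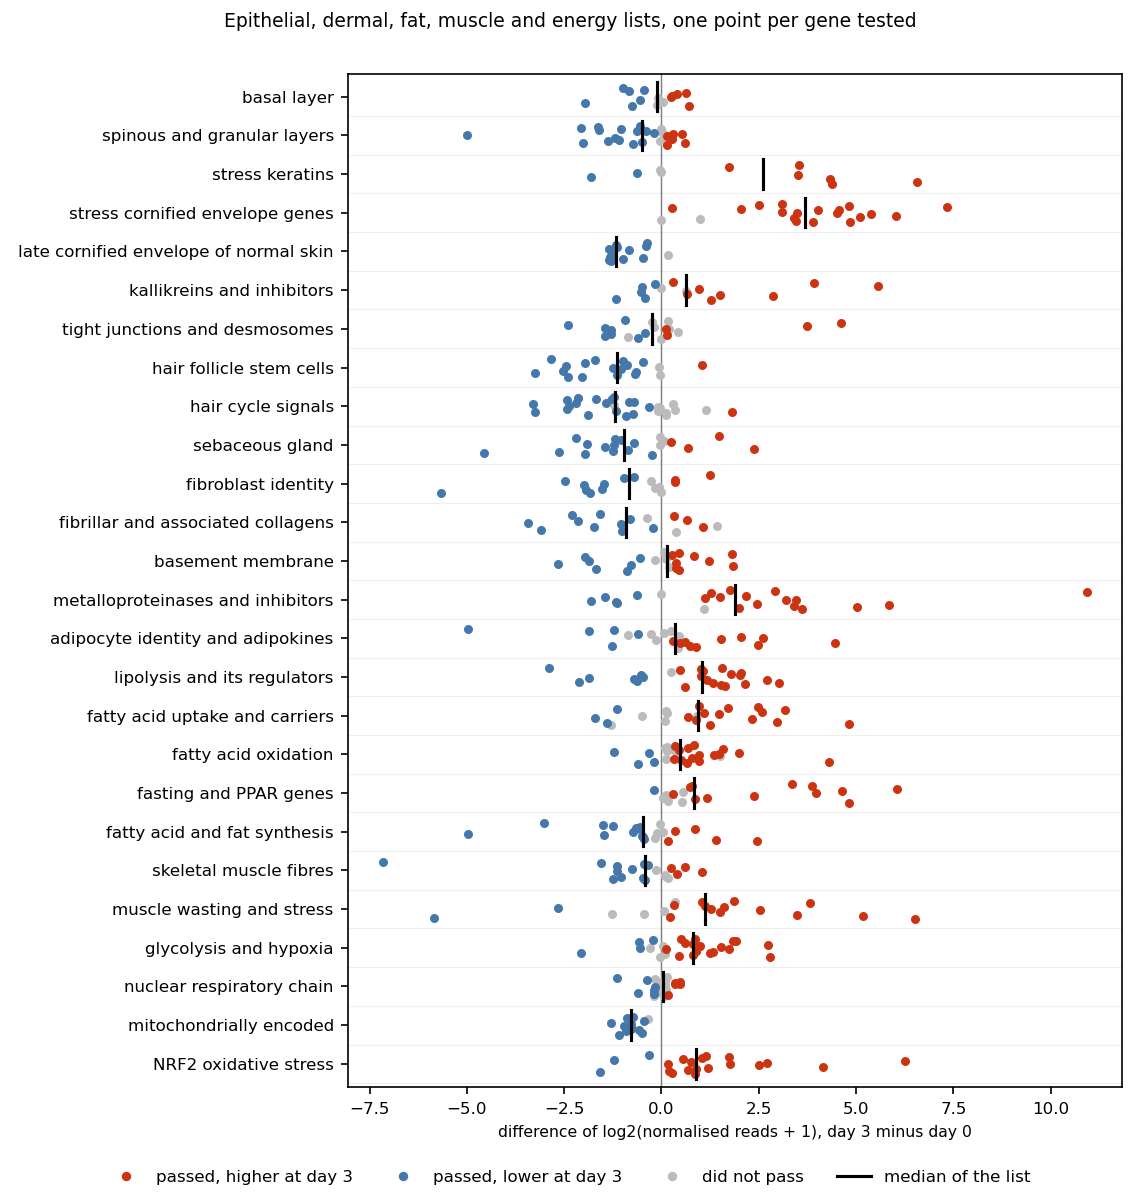
Change from day 0 to day 3 of SDS alone on the log2 scale for each tested gene of the epidermal, follicle, dermal, fat, muscle and energy lists, coloured by whether it passed the test, with list medians as bars. Stress cornified envelope genes lie to the right (median 3.69) and the late envelope genes of normal skin (-1.16), hair follicle stem cells (-1.13) and mitochondrially encoded genes (-0.78) to the left.

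Hair follicle stem cell genes fell in 16 of 19 and rose in 1 (median log2 -1.13). Lgr6, a receptor that marks stem cells of the upper follicle, stood at 1416 and 1509.8 at day 0 and 227 and 186 at day 3 (log2 -2.83, SE 0.12, adjusted p = 8.31e-12). Lhx2, a transcription factor of the bulge, fell, at log2 -2.46, Krt15, the keratin of the bulge and basal layer, by -1.95, and Cd34, which endothelial and stromal cells also carry, by -2.03. The one that rose was Runx1, which leukocytes express as well, from 588 and 483 to 1103 and 1103. Of the signals of the hair cycle, 18 of 30 were lower and 1 higher (median log2 -1.19). Wnt3, Wnt7b and Wnt10a, WNT ligands of keratinocytes, stood at 1047 and 1285 at day 0 and 255 and 179 at day 3, at 1780.2 and 1928 at day 0 and 387 and 448 at day 3 and at 1003 and 1190.0 at day 0 and 517 and 427 at day 3. Axin2, a target by which WNT activity is read, fell, at log2 -0.91 and the bone morphogenetic proteins Bmp2 and Bmp4 by -1.17 and -1.26. Fgf18, a signal of the resting bulge, stood at 870.3 and 829 at day 0 and 83.2 and 93.3 at day 3 (log2 -3.25, SE 0.26, adjusted p = 2e-08), and Wnt16 rose by 1.81. Keratins of the inner root sheath, a sign of growing follicles, were near 0 in all 4 libraries: Krt25 had no read, and Krt71 stood at 1.76 and 3.21 at day 0 and 0 and 0 at day 3. Shh, the signal of growing follicles, was under the filter with 2 reads at day 0 and 0 at day 3.

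Sebaceous gland genes fell in 13 of 20 and rose in 4 (median log2 -0.96). Mc5r, the melanocortin receptor of the gland, stood at 152 and 162 at day 0 and 51.6 and 30.1 at day 3 (log2 -1.96, SE 0.39, adjusted p = 0.000483), and the wax synthase gene Awat2 at 447 and 455 at day 0 and 133 and 71.9 at day 3 (log2 -2.19, SE 0.23, adjusted p = 4.41e-07). Far2, which makes fatty alcohols, fell from 6158 and 5763 to 1561 and 1596, and Scd3, a desaturase of the gland, by log2 -2.62, while its relative Scd1 was not called at 40877 and 39916 at day 0 and 38508 and 40128 at day 3. The members that rose, Plin2, Fabp5, Elovl3 and Mgst1, are shared with other cells, among them fat, epidermis and macrophages.

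In the dermis, genes of fibrillar collagens fell in 10 of 16 and rose in 3 (median log2 -0.92). Without SDS_D3 replicate 2, 1 rose. Col1a2 and Col3a1, chains of the main collagens of skin, stood at 81761 and 87256 at day 0 and 10168 and 9730.3 at day 3 and at 55684 and 57716 at day 0 and 19519 and 18748 at day 3 (Col1a2 log2 -3.09, SE 0.05, adjusted p = 5e-17). Col4a1 and Col4a2, chains of basement membranes, went the other way, at 4942 and 5164 at day 0 and 18191 and 17677 at day 3 and at 3128 and 3264 at day 0 and 11332 and 10957 at day 3, log2 1.83 and 1.80, and Col7a1, the anchoring fibril under the epidermis, fell, at log2 -1.98. Col17a1, which fixes basal keratinocytes to that membrane, fell, at log2 -0.88. Of elastic fibre and proteoglycan genes, 12 of 18 were lower and 1 higher (median log2 -0.79), with lumican, Lum, from 6533 and 6177 to 1062 and 1117, and Vcan, the versican of provisional matrix, from 417 and 459 to 2924 and 3142. Of genes of fibroblast identity, 9 of 16 were lower and 3 higher (median log2 -0.83). Pi16, of a reserve fibroblast population, fell, at log2 -1.94 and Thy1 by -1.83, whereas the receptor gene Pdgfra rose, from 2665 and 2645 to 6115 and 6459.

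Proteins of wound matrix did not form a single pattern, 8 of 16 higher and 6 lower. Tnc, tenascin C, stood at 174 and 147 at day 0 and 21228 and 21031 at day 3, and Spp1, osteopontin, at 67.8 and 68.9 at day 0 and 8851 and 9140.3 at day 3, while Postn, periostin, stood at 8778 and 7981 at day 0 and 1657 and 1501 at day 3 and Fn1, fibronectin, at 18741 and 18410 at day 0 and 10042 and 10045 at day 3. Tnc and Spp1 rose and the other pair fell, with Postn at log2 -2.41 and Fn1 at -0.89. Metalloproteinases and their inhibitors rose in 15 of 22. Adamts4, which cuts proteoglycans, stood at 16.7 and 18.4 at day 0 and 1072 and 1041 at day 3 (log2 5.83, SE 0.31, adjusted p = 1.12e-10), and Timp1, an inhibitor of the class, at 59.0 and 103 at day 0 and 2679 and 2425 at day 3 (log2 5.01, SE 0.29, adjusted p = 3.9e-10). Timp2 and Timp3 fell, at log2 -0.64 and -1.17. Mmp9, of neutrophils and macrophages, rose by 3.20, and Mmp2, the gelatinase of fibroblasts, was not called at 10388 and 10737 at day 0 and 10479 and 10348 at day 3.

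Genes of lipolysis and its regulators, and of the carriage and oxidation of fatty acids, were mostly higher. Those of fat synthesis were mostly lower. Pck1, which makes glycerol 3-phosphate in fat (ENSMUSG00000027513, chromosome 2, 173153048 to 173159273), stood at 255 and 282 at day 0 and 5898 and 5841 at day 3 (log2 4.45, SE 0.22, adjusted p = 6.1e-11). The markers of fat cells themselves moved little: Adipoq, adiponectin, rose by 0.47, and Plin1 and Lep were not called, at 662 and 653 at day 0 and 773 and 782 at day 3 and at 334 and 291 at day 0 and 247 and 327 at day 3. The call of Adipoq was lost without SDS_D0 replicate 1 (log2 0.36), SDS_D3 replicate 1 (0.45) or SDS_D3 replicate 2 (0.49). Of genes of lipolysis and its regulators 16 of 24 were higher and 7 lower (median log2 1.04). The list counts inhibitors too, so its rise is not a rise of fat release. Hilpda, an inhibitor of the main lipase, rose by 3.03 and Cidec, which fuses lipid droplets, by 2.03. Adrb3, the adrenergic receptor of fat cells, fell from 189 and 237 to 51.6 and 63.2. Of genes that take up and carry fatty acids 13 of 22 were higher and 3 lower (median log2 0.93). Angptl4, an inhibitor of lipoprotein lipase, stood at 199 and 216 at day 0 and 6193 and 5596 at day 3 (log2 4.82, SE 0.23, adjusted p = 2.76e-11), Gpihbp1, which holds that lipase on capillaries, rose by 3.16 and Cd36, a fatty acid transporter, by 2.57.

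Of genes of fatty acid oxidation 15 of 26 were higher and 4 lower (median log2 0.47), and of genes of fasting and PPAR action 12 of 18 were higher and 1 lower (median log2 0.83). Ehhadh, a peroxisomal enzyme of oxidation, stood at 172 and 182 at day 0 and 3556 and 3509.7 at day 3 (log2 4.31, SE 0.17, adjusted p = 2.49e-12), and Cpt1a, the gate into the mitochondrion, rose by 1.57. Ucp3, an uncoupling protein of muscle, rose from 159 and 135 to 2345 and 2281. The receptor genes changed less: Pparg rose by 0.74, Ppard by 0.86, and Ppara was not called at 112 and 132 at day 0 and 164 and 194 at day 3. Of synthesis genes the larger part fell, with 12 of 21 genes of fatty acid and fat synthesis lower and 5 higher (3 higher without SDS_D0 replicate 2 or SDS_D3 replicate 1). Elovl6, which lengthens newly made fatty acids, stood at 12425 and 12153 at day 0 and 1463 and 1562 at day 3 (log2 -3.02, SE 0.05, adjusted p = 1.09e-16), and Fasn, the fatty acid synthase, at 8928 and 9726 at day 0 and 3989 and 3815 at day 3 (log2 -1.26, SE 0.05, adjusted p = 4.09e-12). Lpin1, which joins fat synthesis to a role in transcription, rose from 1251 and 1277 to 7008 and 6928. In cholesterol synthesis 6 of 23 were higher and 8 lower (median log2 -0.02). Skin, fat and muscle all express many of these genes, and the share of each tissue in the changes was not tested. The 20 fibre genes of skeletal muscle, 19 of them tested, summed to 597120 and 596274 at day 0 and 584226 and 580686 at day 3. These sums were close to each other in the 4 libraries.

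Of those muscle fibre genes, 11 of 19 were lower and 4 higher (median log2 -0.42). Myh4, the myosin of the fastest fibres, stood at 132226 and 122622 at day 0 and 167890 and 169831 at day 3, and Myh2, of slower oxidative fibres, at 11845 and 11265 at day 0 and 5284 and 5212 at day 3. Myh4 rose by 0.41 and Myh2 fell, at log2 -1.14. Genes of muscle wasting and stress rose in 13 of 19 and fell in 2 (median log2 1.13). Trim63 and Fbxo32, ubiquitin ligases of muscle wasting, stood at 731 and 752 at day 0 and 26664 and 26778 at day 3 and at 2499 and 2417 at day 0 and 14130 and 14432 at day 3, log2 5.17 and 2.54. Ankrd1, a titin-bound protein of strained muscle, stood at 27.3 and 30.5 at day 0 and 2726 and 2742 at day 3 (log2 6.52, SE 0.22, adjusted p = 4.87e-13). Mstn, myostatin, fell from 1113 and 1035 to 151 and 189.

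Energy genes were split between the genomes of nucleus and mitochondrion. All but 1 of 13 mitochondrially encoded genes fell (median log2 -0.78), while of 28 nuclear genes of the respiratory chain 5 rose and 6 fell (median log2 0.05). The latter count was 2 without SDS_D0 replicate 2 and 3 without SDS_D3 replicate 2. Their sum in the library was 778180 and 656150 at day 0 and 450663 and 509071 at day 3 for the mitochondrial set. mt-Co1, a catalytic subunit of cytochrome oxidase, stood at 222434 and 205200 at day 0 and 139429 and 148856 at day 3 (log2 -0.57, SE 0.07, adjusted p = 1.89e-06), and mt-Nd5 was not called at 64336 and 48768 at day 0 and 40744 and 47744 at day 3. Glycolysis and hypoxia genes rose in 18 of 26 and fell in 4. Pfkfb3, which speeds glycolysis, stood at 621 and 651 at day 0 and 4270.5 and 4214 at day 3 (log2 2.74, SE 0.12, adjusted p = 1.3e-11), Slc2a3, the glucose transporter of leukocytes, rose by 1.91 and Hif1a by 1.52, while Hk2, a hexokinase that hypoxia induces, fell, at log2 -0.58 and Car9, a classical hypoxia gene, was not called at 56.4 and 55.3 at day 0 and 43.3 and 46.7 at day 3.

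Genes of oxidative stress under NRF2 rose in 17 of 20 and fell in 3. Slc7a11, which imports cystine for glutathione, stood at 17.6 and 36.1 at day 0 and 2041 and 1998 at day 3 (log2 6.27, SE 0.24, adjusted p = 1.75e-12), Gsta4, which clears lipid aldehydes, at 126 and 160.3 at day 0 and 2576 and 2486 at day 3 (log2 4.15, SE 0.12, adjusted p = 4.39e-14) and Hmox1, which degrades haem, at 1892 and 1934 at day 0 and 12959.6 and 12175 at day 3. Gsta2 and Gsta3 fell, at log2 -1.58 and -1.22. Metal handling genes moved in 16 of 16 cases, 11 up and 5 down. Mt1, metallothionein 1, stood at 2789 and 2661 at day 0 and 30824 and 30149 at day 3, Slc39a14, a zinc and iron importer, at 316 and 373 at day 0 and 5851 and 5723 at day 3, and Fth1, the ferritin heavy chain, at 30762 and 32315 at day 0 and 133071 and 126165 at day 3. These rose by 3.48, 4.07 and 2.04, while Mt4, the metallothionein of stratified epithelium, fell from 554 and 572 to 59.1 and 47.6. Of enzymes of arginine, polyamine, tryptophan and purine use 11 of 17 were higher and 2 lower (median log2 1.38), and 1 was lower without SDS_D0 replicate 1 or either day 3 library. Xdh, which makes uric acid, stood at 5067 and 5042 at day 0 and 15799 and 15721 at day 3 (log2 1.64, SE 0.04, adjusted p = 6.6e-15), and Uox, which degrades it, rose from 2 reads to 86 over the groups (ratio 46.0, 95% counting interval 12.3 to 386).

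Genes of glucocorticoid activation and response rose in 17 of 20 without Topsym (median log2 1.59). Hsd11b1, which turns the inactive steroid into corticosterone within the tissue, stood at 418 and 492 at day 0 and 1423 and 1293 at day 3 (log2 1.58, SE 0.11, adjusted p = 5.03e-09), and Nr3c1, the receptor, was the member that fell, from 3253 and 3015 to 1895 and 1852. Fkbp5 and Zbtb16, direct targets of the receptor, rose by 2.18 and 1.99, and Tsc22d3, the glucocorticoid-induced leucine zipper, by 0.51. With SDS and Topsym the median change of this list was smaller, at log2 0.93. Both Topsym libraries stood below both of SDS alone at day 3 for 18 of the 20 genes and above for 0. At day 0 they stood above for 9 and below for 8. The share of all tested genes so separated was not counted. Several members, among them Lcn2, Pdk4, Mt1 and Cebpd, also answer to inflammation or fasting. Clock genes went 6 up and 6 down of 18: Nr1d1, a repressor of the clock, rose from 481 and 484 to 2626 and 2496, Dbp and Per3 fell, at log2 -1.46 and -1.47, and Arntl was not called at 817 and 873 at day 0 and 753 and 804 at day 3. Immediate early genes, which also answer to handling, rose in 15 of 23 and fell in 6, with Nr4a3 at 2.68, Fos at 0.84 and Fosb at -2.18. The hour of collection and the handling are not given in the sources used here, and their part in these changes was not tested.

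Day 3 was then set against each other day of the arm, to ask which genes stood apart at this day. A gene counted as highest or lowest at day 3 where it differed from days 0, 1 and 5 by at least 2-fold, with an adjusted p under 0.05 in all 3 contrasts, which share the day 3 libraries. There were 798 highest (4.16% of genes tested) and 281 lowest (1.46%). The day 5 libraries detected fewer genes, 20636 and 20774 against 22975 to 23549 in the other libraries of the arm, and their 10 highest genes took 10.3% and 10.8% of reads. With day 5 left out of the fit and the rule, a comparison chosen after seeing the data, 1250 genes were highest and 1152 lowest. Among the 798 genes, those with a mean of at least 100 considered, the 10 farthest above the other days were Cxcl5, Ppbp, Ly6g, Mrgpra2b, Fgf23, Ggt1, Retnlg, Ngp, Prok2 and Car4. Fgf23, a hormone that lowers blood phosphate (ENSMUSG00000000182, chromosome 6, 127072902 to 127081408), had no read at days 0 and 5 and stood at 286 and 288 at day 3 (log2 8.17 against day 0, 6.98 against day 1 and 8.17 against day 5). Prok2, a secreted peptide of neutrophils, stood at 106 and 105 at day 3 and had no read at days 0 and 5. Car4, a carbonic anhydrase bound to the cell surface, stood at 18.9 ± 0.670 at day 0, 56.0 ± 5.06 at day 1, 2593 ± 15.9 at day 3 and 31.9 ± 0.916 at day 5 (mean ± SD, n = 2). The antimicrobial S100a8 did not belong to this set, at 123 ± 2.60 at day 1, 10337 ± 439 at day 3 and 49038 ± 586 at day 5.

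The 10 farthest below the other days were Aadacl2fm1, Pyy, Rps15-ps2, Cyp17a1, Cd207, Ascl2, Ccdc113, Kctd4, Ano7 and Lhfpl1. Cyp17a1, an enzyme of steroid synthesis (ENSMUSG00000003555, chromosome 19, 46667165 to 46673172), stood at 725 ± 22.9 at day 0, 308 ± 13.3 at day 1, 65.6 ± 4.87 at day 3 and 651 ± 41.4 at day 5. Cd207 stood at 510.2 ± 36.6 at day 1 and 189 ± 46.7 at day 5, against 42.4 ± 12.9 at day 3, so the Langerhans cell marker was lowest at this day. Ascl2, a transcription factor of WNT-driven cells, stood at 197 and 168 at day 0 and 36.6 and 27.2 at day 3, and at 229 ± 7.65 and 141 ± 8.65 (mean ± SD) at days 1 and 5. Rps15-ps2 is a pseudogene, and reads of its parent gene can be counted to it.

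**Figure D4:**
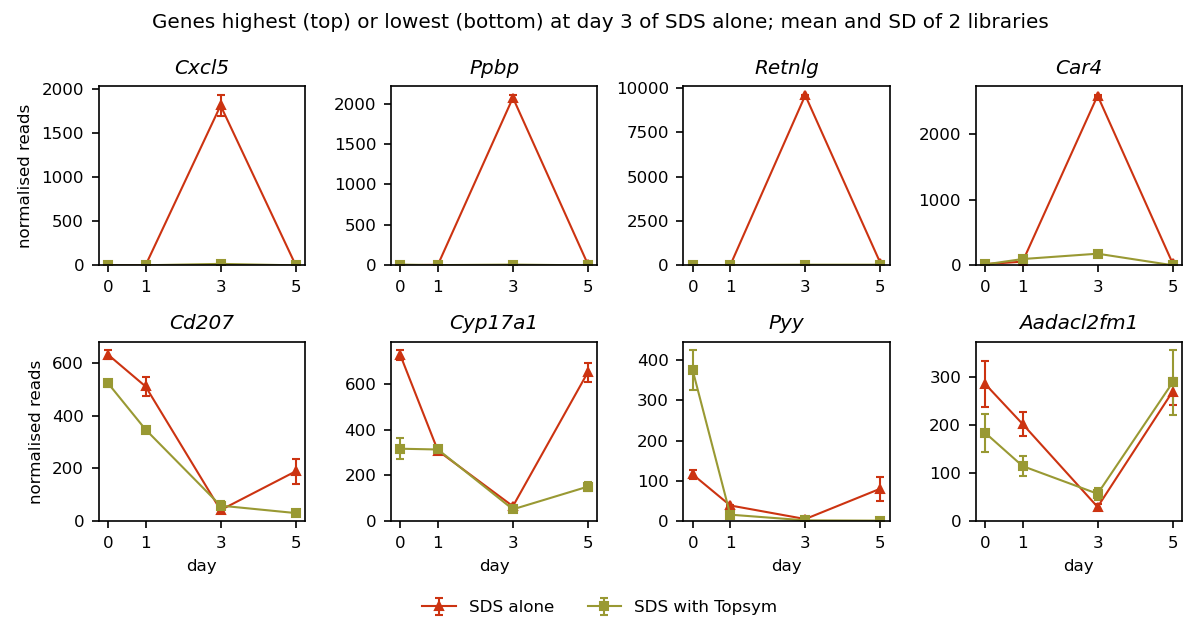
Normalised reads on a linear axis from 0 against the day (0, 1, 3 and 5), for 4 genes highest (top) and 4 lowest (bottom) at day 3 of SDS alone, with triangles for SDS alone and squares for SDS with Topsym. Symbols are means and bars the SD of 2 libraries. With SDS alone Car4 peaks at day 3 (mean 2593 ± 15.9 against 31.9 ± 0.916 at day 5), and Cyp17a1 has its lowest mean there (65.6 ± 4.87).

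The same days were compared in the arm with Topsym, to ask where the change from day 0 differed when the glucocorticoid was given as well. The sources used here do not say how the Topsym animals of day 0 had been treated, and each difference rests on its 2 libraries too. The change with SDS alone was above that with Topsym for 3742 genes (19.5%) and below it for 3739 (19.5%), by the interaction term of limma. Of the neutrophil receptors, 21 of 23 were above and 0 below, with list medians of 5.47 with SDS alone and 0.60 with Topsym. Fpr1, the receptor for formylated bacterial peptides, went from 14.1 and 9.75 to 34.4 and 16.1 with Topsym and from 0.881 and 0 to 1256 and 1149 with SDS alone (log2 8.83, SE 1.02, adjusted p = 2.8e-06). Ppbp went from 12.1 and 6.50 to 9.82 and 8.71 with Topsym (log2 10.28, SE 0.83, adjusted p = 4.25e-08 for the difference), and Ngp from 2.01 and 0 to 6.55 and 4.02 (log2 9.69, SE 1.12, adjusted p = 2.69e-06). Cxcl2 rose in both arms, by 9.57 and 3.89, and the difference passed (log2 5.68, SE 0.45, adjusted p = 3.18e-08).

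Stress keratins and stress envelope genes of the epidermis did not show that difference, while the antimicrobial list was divided. Of 10 stress keratins, 0 were above and 5 below. Of 17 antimicrobial genes, 8 were above and 5 below, with medians of 2.90 with SDS alone and 2.26 with Topsym. For the stress envelope genes the medians were 3.69 with SDS alone and 4.27 with Topsym, and 0 of 20 were above and 10 below. Krt6b rose by 6.57 with SDS alone and 9.04 with Topsym (log2 -2.47, SE 0.15, adjusted p = 1.16e-09 for the difference). The mitosis genes, at a median of -0.11 with SDS alone, had a median of 1.23 with Topsym, with 18 of 18 below and 0 above. Epgn, an EGF receptor ligand of keratinocytes, went from 319 and 289 to 6694 and 6664 with Topsym and from 313 and 309 to 800.0 and 727 with SDS alone (log2 -3.16, SE 0.14, adjusted p = 2.19e-11). Interferon response genes had medians of -0.16 and -3.10, with 21 of 22 above. The day 0 groups already differed here: both libraries of day 0 with Topsym stood above both of day 0 with SDS alone for 22 of the 22 genes, and at day 3 the Topsym libraries stood below for 21. Oas3 went from 792 and 810.3 to 51.6 and 65.7 with Topsym and from 50.2 and 78.5 to 273 and 241 with SDS alone. For mitosis the Topsym libraries stood above for 18 of 18 genes at both days. The share of all tested genes with the arms so separated was not counted, and such counts are not particular to these lists. At day 0 the Topsym libraries stood below for 15 of 17 genes of blood endothelium and above for 1. At day 3 they stood above for 16 of 19 genes of the junction list and below for 0. In the spinous and granular list, the Topsym libraries stood above for 24 of 25 genes at day 3. MHC class II genes were lower in both arms, with medians of -2.10 and -3.67, and 8 of 12 were above.

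Some of the largest differences between the arms lay in the day 0 group with Topsym rather than at day 3. Krt25, Krt71 and Krt73, keratins of the inner root sheath of growing follicles, stood in that group at 3931 and 3733, 5384 and 5910.3 and 591 and 569.7. In the day 3 groups of both arms and at day 0 of SDS alone, no library held more than 5 normalised reads of any of the 3. The limma calls of these genes were not all shared by the count tests: edgeR did not call Krt25 or Krt71 (adjusted p = 1 and 0.983), and DESeq2 did not call Krt25 or Krt73 (adjusted p = 0.111 and 0.161). Elovl6 and Elovl3, which lengthen fatty acids in gland, fat and skin, and Cyp2e1, a cytochrome of fat and skin, were below with SDS alone, at -3.35, -3.30 and -3.72. At day 0 both Topsym libraries stood below both of SDS alone for 21 of 22 adipocyte genes and above for 0. The same held for 19 of 20 sebaceous gland genes, with 1 above, and 19 of 19 muscle fibre genes. The part of fat, gland and muscle content in these differences was not tested. Cyp2e1 went from 1725 and 1795 to 2972 and 2905 with SDS alone and from 423 and 438 to 9477 and 9573 with Topsym. Mrgprg, a receptor of sensory nerves, went from 272 and 248 to 1086 and 1149.8 and from 0 and 6.50 to 192 and 162 (log2 -3.91, SE 0.78, adjusted p = 0.00068). Mup17 was below as well, at -7.98, but its day 0 libraries of SDS alone stood at 1301 and 248, and it has near copies in the genome. The list of red blood cells and platelets had medians of 1.91 with SDS alone and -2.07 with Topsym. Of its 10 genes, 9 stood higher at day 0 with Topsym than at day 0 with SDS alone, and 8 stood lower at day 3. Here too the share of all tested genes was not counted. The part of blood in these differences was not tested.

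**Figure D5:**
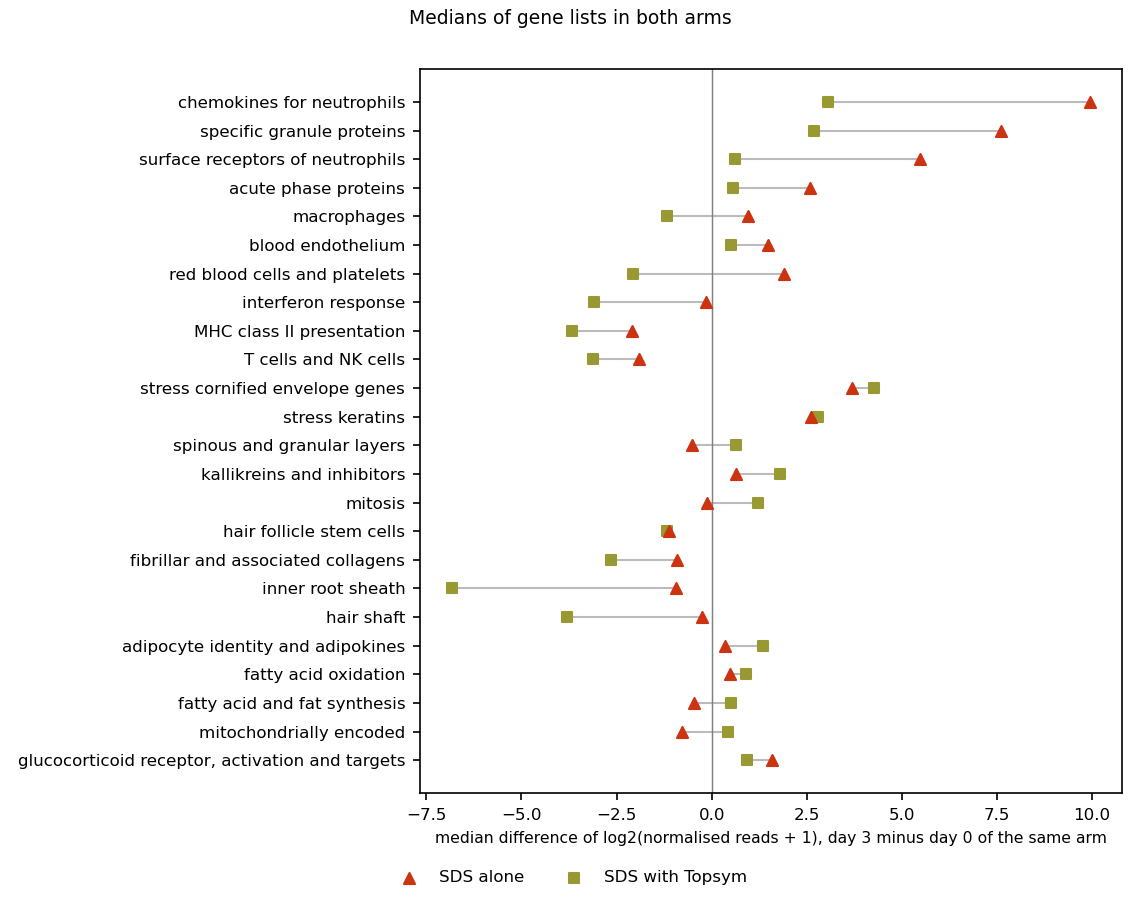
Median change from day 0 to day 3 on the log2 scale of 24 gene lists, with triangles for SDS alone and squares for SDS with Topsym, each against day 0 of its own arm. Chemokines for neutrophils stand at 9.95 and 3.06, stress cornified envelope genes at 3.69 and 4.27, and the inner root sheath at -0.94 and -6.83.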

How the data were processed

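RNA of whole skin was sequenced in 16 libraries, 8 groups of 2 by their titles. The authors deposited a normalised signal per gene, made from read counts with Trim Galore 0.6.7, HISAT2 2.2.1, featureCounts 2.0.3 and DESeq2 2.11.40.8 on mm10, per the submitters' processing notes. The strand setting of the counting step is not given, and overlapping antisense partners may share reads. Dividing each library by the value of 1 read gave whole numbers for 100% of its values (tolerance 1e-04), which recovered the reads. Even numbers made up 71.5% and 71.9% of counts from 1 to 20 in the day 0 and day 3 groups, as where the mates of a pair are counted apart, and intervals are then too narrow and floors too high. The 2 libraries of a group differed by more than sampling noise in each of the 8 groups (chi-square per degree of freedom 3.13 or more, 6.73 at day 0 and 4.53 at day 3 of SDS alone).

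Genes that reached a normalised value of 10 in 2 or more libraries were kept. log2(value + 1) was fitted over all 16 libraries by limma 3.58.1 (R 4.3.3) with an intensity trend in the prior variance, 8 residual degrees of freedom and Benjamini-Hochberg adjustment over all tested genes, at a threshold of 0.05. For groups at 0 reads, folds are lower bounds set against 3 reads in the whole group, and 1 to 3 reads gave a ratio with a 95% counting interval. The fit was tested on simulated data. Positions came from GENCODE M21 (GRCm38) for 31983 genes and promoters from RefSeq (GRCm38.p6). The 83 gene lists, the members and the rule for named genes were chosen with earlier results of these data known. That rule named the 12 largest rises and falls whose higher group had a mean of 1000 or more, without overlap or predicted models, up to 6 members of a list past the threshold with those that define it or are near 0, the 10 genes of each direction that stand farthest apart at day 3, with a mean of at least 100, and the 6 largest differences between the arms each way, with a mean of at least 500. Other members named for contrast were chosen after their values were seen. Reads of Sprr2, Krt6, Saa, Lce, Defb, Stfa, Mup and haemoglobin genes can be shared between near copies. The alternatives tried were another pseudocount (4), testing unfiltered genes, edgeR 4.0.16's TMM factors, only the libraries compared, a replicate block, each library left out, edgeR and DESeq2 1.42.0 on recovered reads, and, added after seeing the data, day 5 left out.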

Additional observations from a re-analysis of the deposited data

Results flagged for a closer look

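The 12 genes that lead the comparison of the arms had the largest differences in the change from day 0 to day 3 between SDS alone and SDS with Topsym. They were picked among genes that passed the interaction term of limma, so that each of them passed is no further result. The difference of log2 changes, SDS alone minus SDS with Topsym, was 10.28 for Ppbp, 9.69 for Ngp and 8.83 for Fpr1, genes of platelets and neutrophils. It was 11.90 for Krt25, 9.96 for Krt73 and 9.62 for Krt71, keratins of the inner root sheath that were high only in the day 0 group with Topsym among the 4 groups compared. For Krt25 and Krt71 the difference was not called by edgeR, and for Krt25 and Krt73 not by DESeq2. SDS alone was below for Mup17 (-7.98), Mrgprg (-3.91), Cyp2e1 (-3.72), Elovl6 (-3.35), Elovl3 (-3.30) and Epgn (-3.16). Each value rests on 2 libraries in each of 4 groups.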

How the results depend on the processing

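The fit with limma called 9518 genes at day 3 against day 0. With the replicate block it called 9423, and 7918 to 8004 without 1 of the 4 libraries. Over the alternatives, including edgeR (10228) and DESeq2 (9937), the count stayed within 1.5 times. With day 5 left out, a choice made after seeing the data, it was 10819, while the genes highest or lowest at day 3, whose rule then has 1 contrast fewer, came to 2402 (1250 highest and 1152 lowest). Under the other alternatives these stayed within 1.5 times, as did the arms: the genes highest or lowest at day 3 were 1079 (940 to 1071 with a library left out, 1077 with the replicate block), and those that differed between the arms 7481 (6410 to 6768, and 7391). Replicate numbers did not pair the libraries: the correlation of deviations between same-numbered libraries was -0.00123 for the day 0 and day 3 groups. The median change of all genes lay between -0.0149 and 0 under the alternatives planned, and 50.5% to 52.7% of called genes were higher. The change from day 0 to day 3 was followed for 246 genes over 11 alternatives, and 0 reversed direction. The same held for the 12 differences between the arms over 15 alternatives. Not every gene named was among those followed, and with day 5 left out only counts were taken. Low reads limit what can be said of the genes near 0, where a call of limma can be lost in a count test. With 2 libraries a group, leaving out 1 leaves a lone library that is assumed to vary like the other groups.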
